A study of Mus musculus with 4 samples.

Results

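The genes described here are the ligand gene Tgfb1, 6 receptor genes (Tgfbr1, Tgfbr2, Tgfbr3, Bmpr1a, Bmpr2 and Acvr1) and 3 SMAD genes (Smad2, Smad3 and Smad7) of the transforming growth factor beta (TGF-beta) and bone morphogenetic protein (BMP) pathways. They were listed by symbol, and each was read from the probe set that the platform's annotation assigns to that gene alone. All 10 listed genes were measured, out of 19938 genes in all, and each of the 10 had 1 probe set. Their expression was compared between TS2 and TS1, mouse lines whose labels give CD4+ T lymphocytes as their origin. Both grew untreated in the same medium with murine interleukin-9, so there is no group without this cytokine, and the labels give no genetic change in either line. RNA from biological duplicates A and B of each line was hybridised to 1 Affymetrix mouse gene array per duplicate, which gives 2 TS2 arrays and 2 TS1 arrays.

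TGF-beta binds the type II receptor Tgfbr2, a serine/threonine kinase that activates the type I receptor Tgfbr1, and Tgfbr1 then phosphorylates the receptor-regulated SMADs Smad2 and Smad3. BMPs signal through other pairs of type II and type I receptors, among them Bmpr2 with Bmpr1a or Acvr1, to Smad1, Smad5 and Smad9, and both groups of SMADs act in the nucleus together with Smad4. In T cells TGF-beta is known for restraining proliferation and effector differentiation, and for inducing the regulatory T cell factor Foxp3.

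Values are log2 of the deposited intensities, and differences are TS2 minus TS1 on that log2 scale. A gene was called different at an adjusted p under 0.05 in limma, a linear model that pools information on variance across genes, after Benjamini-Hochberg adjustment for 19938 genes. The median intensities of the arrays lay between 88.6 and 92.5. The mean log2 intensity was under 5.35 for the dimmest 30% of genes and under 6.61 for the dimmest 50%, and the mean of each of the 10 genes lay above 6.61. Signal over background is unknown, because the values are used without detection calls, and the 4 arrays limit the precision of every difference. With 2 arrays per line, the smallest two-sided p of an exact permutation test is 0.333. The duplicates are called biological, without word on when or from what they were grown apart, so the p-values measure the spread between these arrays.

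The labelled cell type was set against its markers. Of 11 measured T cell markers, Cd3e, Cd247, Zap70 and Ptprc were higher in TS2 and the others did not pass, while 5.05% of all genes were called as higher. Among the called markers, Cd3e, Cd247 and Ptprc lay under 6.61 on both TS1 arrays, while Zap70 stood at 8.36 and 8.77 there. Of the others, Cd3d, Cd2, Cd5 and Thy1 lay under 6.61 on every array of both lines. Cd28 stood at 7.14 on TS2 A and at 4.95 or below on the other arrays. The summed intensity of the 11 markers was 13206 and 14677 on the TS2 arrays, against 2251 and 950 on the TS1 arrays. Cd3g alone gave 1465 of that sum on TS1 A and 67 on TS1 B, and 1338 and 4050 on TS2 A and B. Cd4 itself lay at 5.15 and 5.28 in TS2 and at 5.38 and 5.36 in TS1, below the limit of the dimmest 50% of genes. Of 7 mast cell markers, Fcer1a, the alpha chain of the IgE receptor, was bright, at 13.00 and 13.08 in TS2 against 12.69 and 12.91 in TS1. Cpa3 also lay above 6.61 on every array of both lines, between 7.95 and 9.13, while Ms4a2 and Tpsb2 lay under 6.61 on every array. The summed intensity of the 7 was 8933 and 10512 in TS2, against 7478 and 8519 in TS1, most of it from Fcer1a, and of the 7 only Kit was called, as lower in TS2. The mast cell proteases Mcpt4 and Cma1 split the TS2 duplicates, at 6.60 and 5.35 on TS2 A and at 10.10 and 8.61 on TS2 B, and stood at 5.49 or below in TS1. None of 5 B cell, 7 myeloid and 5 epithelial markers was called, and they ran from 3.73 to 7.26 on the log2 scale. Of 7 fibroblast markers, which summed to 440 and 445 in TS2 and to 468 and 584 in TS1, Pdgfra was called, as lower in TS2. Fewer cells of a type and less RNA per cell cannot be told apart in such bulk RNA, and the part of these marker differences in the results below was not tested.

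The lines differed in 3 of the 10 genes. TS2 cells had 3.63-fold more transcript of Smad3, which carries the TGF-beta signal into the nucleus, and 3.47-fold more of Tgfbr3, the coreceptor betaglycan that presents TGF-beta to its signalling receptors. TS2 cells had less transcript of the type II receptor Tgfbr2, which was 2.03-fold higher in TS1. The other 7 genes, Tgfb1 and the BMP receptors among them, did not pass the test. Over all genes 13.5% were called, 5.05% as higher in TS2 and 8.45% as lower in TS2, against 3 of this list of only 10. All 10 had means above 6.61, however, and with the dimmest 50% of genes left out 2880 of 9969 genes were called. The 3 of 10 is close to that share, so it does not stand out among the brighter genes. The log2 intensities of TS2 and TS1 did not overlap for 8 of the 10, against 58.4% of all genes, dim ones included. The 10 were chosen with earlier results of these data known, so their shares of calls and of non-overlap are not independent of that choice. The median difference of the 10 genes was 0.038, against 0.013 over all genes.

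**Figure D1:**
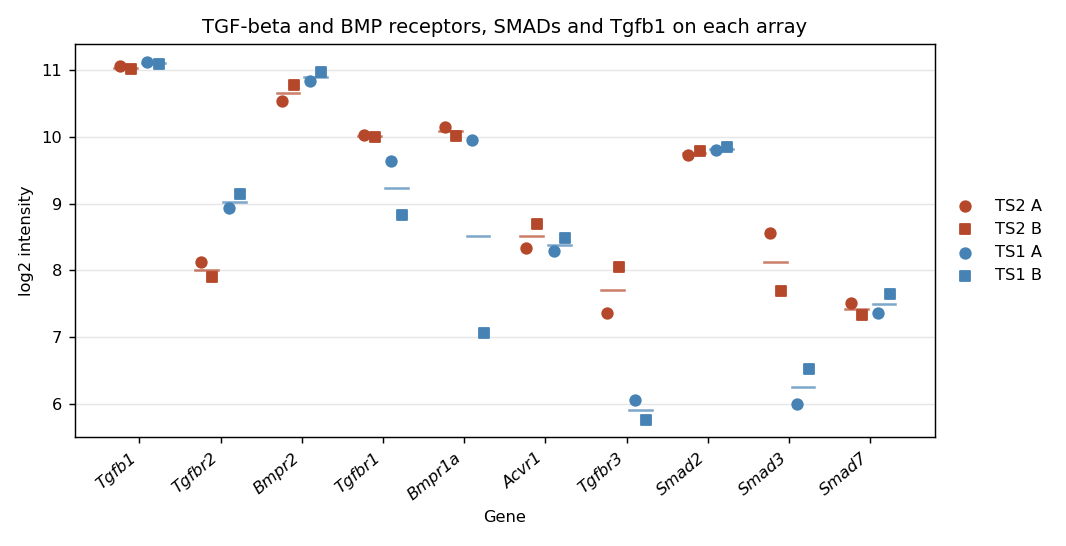
Log2 intensity (vertical axis) of the 10 genes (horizontal axis) on the TS2 arrays (red) and the TS1 arrays (blue), with circles for duplicate A, squares for duplicate B and short lines for the mean of each line. Smad3 and Tgfbr3 lie higher in TS2 and Tgfbr2 lies lower, while Bmpr1a stands at 7.07 on TS1 B and between 9.95 and 10.15 on the other 3 arrays.

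The ligand was near the same level on every array. Tgfb1, which encodes TGF-beta 1, had a log2 intensity of 11.06 and 11.01 on TS2 A and B, against 11.12 and 11.09 on TS1 A and B. The TS2 arrays lay just below the TS1 arrays, by 0.07 (SE 0.086, adjusted p = 0.639). The 95% interval of the difference ran from -0.30 to 0.15.

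Of the type II receptors, Tgfbr2 differed and Bmpr2 did not pass. Tgfbr2 had a log2 intensity of 8.12 and 7.90 in TS2, against 8.93 and 9.14 in TS1. Both TS2 arrays lay below both TS1 arrays, with a mean of 8.01 ± 0.16 in TS2 and 9.03 ± 0.15 in TS1 (SD, n = 2 each) and a difference of -1.02 (SE 0.13, adjusted p = 0.0111). The call was lost without TS2 B (difference -0.91, adjusted p = 0.0565). Bmpr2, the type II receptor for BMPs, was bright in both lines, at 10.53 and 10.78 in TS2 against 10.83 and 10.97 in TS1. Its arrays did not overlap, but its difference of -0.25 (95% interval -0.56 to 0.07, adjusted p = 0.265) did not pass.

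Of the type I receptors, Tgfbr1 and Bmpr1a had TS2 duplicates that lay close together and TS1 duplicates that lay apart. Tgfbr1, also called ALK5, had a log2 intensity of 10.03 and 9.99 on TS2 A and B, against 9.63 on TS1 A and 8.83 on TS1 B. TS1 B was the lowest of the 4 arrays, and the TS2 arrays lay above both TS1 arrays. The difference of 0.78 (SE 0.27, adjusted p = 0.129) did not pass. It was 1.18 on leaving out TS1 A and 0.39 on leaving out TS1 B, each resting on 1 TS1 array, which gives no spread of its own.

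Bmpr1a, the BMP type I receptor ALK3, was the gene on which the TS1 duplicates disagreed most among the 10. Its log2 intensity was 10.15 and 10.01 on TS2 A and B, against 9.95 on TS1 A and 7.07 on TS1 B. TS1 A thus stood beside the TS2 arrays, and TS1 B alone was low, 7.37-fold below TS1 A. The mean was 10.08 ± 0.098 in TS2 and 8.51 ± 2.04 in TS1 (SD, n = 2 each), and the difference of 1.57 (SE 0.91, 95% interval -0.78 to 3.92, adjusted p = 0.337) did not pass. The TS2 mean minus TS1 A alone was 0.13, and the TS2 mean minus TS1 B alone was 3.01. Each rests on 1 TS1 array, which gives no spread of its own. The TS1 mean thus stands for neither TS1 array. Acvr1, also called ALK2, showed no such gap in TS1. It lay at 8.34 and 8.69 in TS2 and at 8.29 and 8.48 in TS1, with duplicates 0.35 and 0.18 apart in TS2 and TS1, overlapping arrays and a difference of 0.13 (95% interval -0.25 to 0.52, adjusted p = 0.633).

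**Figure D2:**
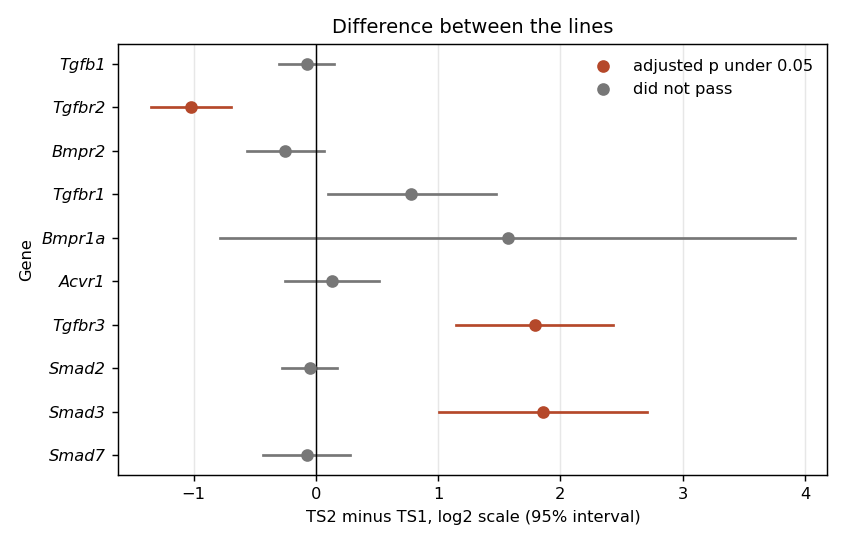
Difference between the line means (TS2 minus TS1, log2 scale, horizontal axis) for each of the 10 genes (vertical axis), with limma's 95% interval as a line, in red where the adjusted p was under 0.05 and in grey where it was not. Smad3 and Tgfbr3 lie right of 0 and Tgfbr2 left of it, and Bmpr1a has the widest interval, -0.78 to 3.92.

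The coreceptor Tgfbr3 had a log2 intensity of 7.37 and 8.05 in TS2, against 6.07 and 5.77 in TS1. Both TS2 arrays lay above both TS1 arrays, although the TS2 duplicates were themselves 0.68 apart. The difference was 1.79 (SE 0.25, adjusted p = 0.0147), a call lost without TS1 B (difference 1.64, adjusted p = 0.0634). Both TS1 values lay under 6.61, the limit set on the means of the dimmest 50% of genes, so the size of the fold is less certain than its direction.

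Of the SMADs, Smad3 differed while Smad2, which the same receptor activates, lay at nearly one level. Smad3 had a log2 intensity of 8.56 and 7.69 on TS2 A and B, against 6.00 and 6.53 on TS1 A and B. The lines did not overlap, but the TS2 duplicates were 0.87 apart and the TS1 duplicates 0.53, and both TS1 values lay under 6.61. The difference was 1.86 (SE 0.33, adjusted p = 0.0275). The call was lost without TS1 A (difference 1.60, adjusted p = 0.0858), when TS1 B was left out (2.12, adjusted p = 0.0593) and when TS2 A was left out (1.43, adjusted p = 0.0643). It was lost as well with an offset of 50 added to the intensities (1.38, adjusted p = 0.0632).

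Smad2 had a log2 intensity of 9.73 and 9.79 in TS2, against 9.80 and 9.84 in TS1, a difference of -0.05 (95% interval -0.28 to 0.17, adjusted p = 0.741). Whether the difference of Smad3 exceeds that of Smad2 was not tested. Smad7, the inhibitory SMAD that TGF-beta itself induces and that blocks the type I receptor, lay at 7.52 and 7.34 in TS2 and at 7.36 and 7.65 in TS1. Its arrays overlapped, and its difference of -0.07 (95% interval -0.43 to 0.28, adjusted p = 0.78) did not pass.

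The promoters of Smad3 and Tgfbr2, the called genes of opposite direction for which a sequence was at hand, and of Bmpr1a are shown to set the sequence beside the levels. Each is the window of 300 bases from 250 before the annotated start to 50 from it onward, from RefSeq on build GRCm38.p6, read 5′ to 3′ on the strand of the gene, which is the minus strand for all 3. For Bmpr1a the table's start is that of a transcript beginning inside the gene's outer limits, and for Smad3 and Tgfbr2 it is the outermost one. Capitals mark the SMAD-binding core CAGAC and the GC box GGGCGG, each searched on both strands, and no 2 marked motifs overlap. The windows are chr9:63757945-63758244 for Smad3, chr9:116175314-116175613 for Tgfbr2 and chr14:34502497-34502796 for Bmpr1a.
Smad3: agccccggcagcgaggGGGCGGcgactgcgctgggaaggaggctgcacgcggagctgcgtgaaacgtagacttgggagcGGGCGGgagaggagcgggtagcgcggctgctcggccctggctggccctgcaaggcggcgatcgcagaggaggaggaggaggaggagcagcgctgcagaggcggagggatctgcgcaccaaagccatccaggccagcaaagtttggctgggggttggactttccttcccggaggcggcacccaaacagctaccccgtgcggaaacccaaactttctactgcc
Tgfbr2: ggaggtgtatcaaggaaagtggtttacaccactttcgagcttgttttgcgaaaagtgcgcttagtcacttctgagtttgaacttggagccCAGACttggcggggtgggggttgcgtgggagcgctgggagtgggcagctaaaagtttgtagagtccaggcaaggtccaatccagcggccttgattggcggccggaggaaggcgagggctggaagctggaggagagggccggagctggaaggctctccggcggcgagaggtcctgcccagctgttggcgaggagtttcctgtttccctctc
Bmpr1a: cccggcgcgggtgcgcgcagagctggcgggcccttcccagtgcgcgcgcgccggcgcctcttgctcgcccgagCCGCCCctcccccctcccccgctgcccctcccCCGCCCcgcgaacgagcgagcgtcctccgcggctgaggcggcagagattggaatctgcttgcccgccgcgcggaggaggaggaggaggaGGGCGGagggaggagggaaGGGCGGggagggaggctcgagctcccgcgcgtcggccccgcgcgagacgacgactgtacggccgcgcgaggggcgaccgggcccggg

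These windows differed in their base composition. The Bmpr1a window held 48 CpG dinucleotides and 4 GC boxes, with a GC content of 79.3%, and 98.8% of the 32851 RefSeq windows of this length held fewer CpGs. The Smad3 window held 25 CpGs and 2 GC boxes, and the Tgfbr2 window held 15 CpGs, 1 CAGAC core and 2 CCAAT elements. The Bmpr1a window held 1 CCAAT element and the Smad3 window 0 (these are not marked). Over all windows 35.7% held the GC box, 49.6% the CAGAC core and 37.4% the CCAAT element. TATAAA, searched on both strands, which 13.6% of the windows held, was not in any of these 3. Of the 10 genes, 7 had a window that was examined. A match is a description of the letters and not a binding site.

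The distance between duplicates was then read for each line, since a difference between the lines rests on it. Between TS1 A and TS1 B, 1 of the 10 genes, Bmpr1a, reached a 2-fold distance, against 1.11% of all genes. This split of Bmpr1a was known when the 10 genes were set, so neither this share nor its rank below is independent of that choice. Between TS2 A and TS2 B none of the 10 reached it, against 0.617% of all genes. The distance of Bmpr1a in TS1, -2.88 as B minus A, was exceeded in size by 6 of the 19938 genes. These were Cd3g (the CD3 gamma chain), Tnfrsf9, Ephx2, Crnde and the cytokine gene Il6, which were lower on TS1 B, and Far2, which was higher there. They are named here on the strength of these values. Of the 221 genes with a 2-fold distance in TS1, 145 were lower on TS1 B and 76 were higher, and the median of B minus A over all genes was 0.026.

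Bmpr1a's neighbours on chromosome 14 were read on the TS1 arrays as well. The 5 nearest measured genes on each side, by their order in the RefSeq gene table, differed between TS1 A and TS1 B by 0.01 to 0.19 on the log2 scale. Of these 10 neighbours, 5 had a mean under 6.61, among the dimmest 50% of genes, where a drop on TS1 B could hardly show, so the comparison rests on the other 5. An error of the single Bmpr1a probe set on TS1 B was not tested.

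In the wider pathway, 3 of 108 measured genes reached a 2-fold distance in TS1, against 1.11% of all genes, and they too were picked after their values were seen. In TS2 none of the 108 reached it, against 0.617% of all genes. Id3, an inhibitor of helix-loop-helix factors that BMPs induce, had a log2 intensity of 7.80 and 7.68 on TS2 A and B, against 8.04 on TS1 A and 6.18 on TS1 B. Like Bmpr1a, it was low on TS1 B alone. Foxp3 lay at 8.07 and 7.27 in TS2, against 9.25 on TS1 A and 6.92 on TS1 B, so the 2 TS1 arrays held its highest and its lowest value. Tgfb2, which encodes another TGF-beta isoform, lay at 5.49 and 5.53 in TS2, against 6.39 on TS1 A and 7.87 on TS1 B. The differences between the lines did not pass for these 3 genes (adjusted p = 0.554 for Id3, 0.785 for Foxp3 and 0.0936 for Tgfb2).

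**Figure D3:**
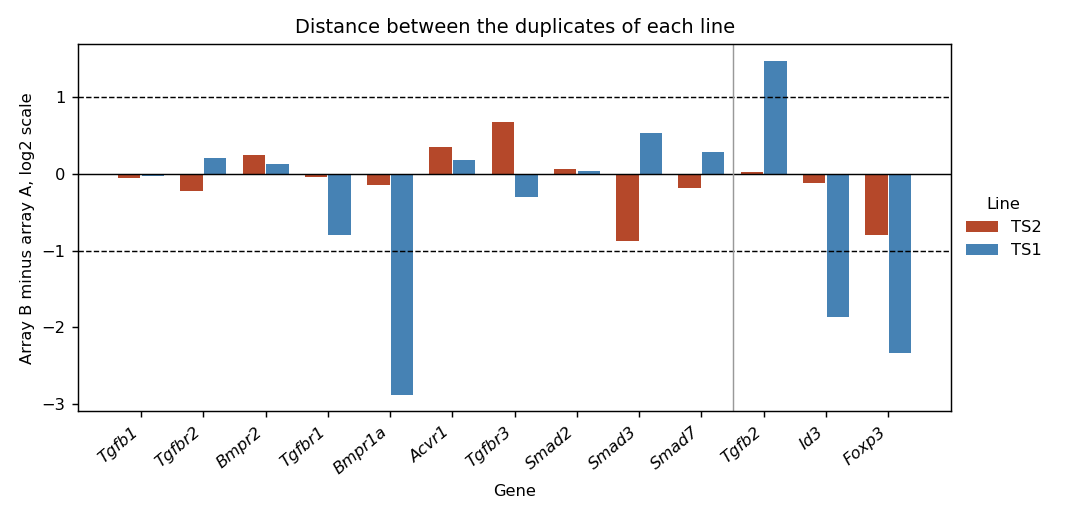
Array B minus array A on the log2 scale (vertical axis) for TS2 (red bars) and TS1 (blue bars) in the 10 genes and, right of the grey line, in Tgfb2, Id3 and Foxp3; dashed lines mark a 2-fold distance. The TS1 bar of Bmpr1a reaches -2.88, and those of Id3 and Foxp3 also point below -1, while that of Tgfb2 points above 1.

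The other genes of the pathways were read from 7 lists of ligands, receptors, SMADs, regulators and targets. Of 108 measured genes outside the 10, 6 were higher in TS2, 8 were lower in TS2 and 94 did not pass. The share called, 13%, was near that of all genes, 13.5%, so the pathway at large did not stand out by its count. Of the 108 genes, 57 lay among the dimmest 50%. Over all genes 5.05% were called as higher in TS2 and 8.45% as lower, and the counts of the single lists below were not tested against these shares. The count of 14 was 9 on leaving out TS1 B or TS2 A and 7 on leaving out TS2 B, and over all genes the count fell in these fits as well, to 1565, 979 and 1035, against 2691 with all arrays.

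Of 31 other ligand genes, 2 were lower in TS2 and 29 did not pass, with a median difference of 0.007. Bmp7, a BMP that acts through Acvr1 and Bmpr2, had a log2 intensity of 9.78 and 9.48 in TS2, against 10.61 and 10.94 in TS1 (difference -1.14, SE 0.16, adjusted p = 0.0158). The Bmp7 call ended at an adjusted p of 0.0508 on leaving out TS1 B and of 0.0704 on leaving out TS2 B. Bmp1 lay at 7.98 and 7.93 in TS2, against 9.18 and 8.96 in TS1 (difference -1.12, SE 0.11, adjusted p = 0.0059). Despite its name Bmp1 encodes a metalloprotease that processes procollagens, and no BMP.

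Receptors outside the 10 were mostly called in neither direction. Of 7 other type I and type II receptors, 1 was lower in TS2: Acvr1b, the activin type I receptor ALK4, which signals through Smad2 and Smad3. It lay at 6.99 and 6.39 in TS2, against 7.85 and 7.61 in TS1 (difference -1.04, SE 0.22, adjusted p = 0.0429). Leaving out TS1 A, TS1 B or TS2 B ended that call, at an adjusted p of 0.129, 0.0972 and 0.0968 in that order. It ended too after renewed quantile normalization (adjusted p = 0.0583) and with the offset of 50 (adjusted p = 0.0656). Of 9 coreceptors and related surface proteins, 1 was lower in TS2. This was Bambi, a pseudoreceptor without a kinase that damps TGF-beta and BMP signals, at 6.90 and 6.54 in TS2 against 8.34 and 8.66 in TS1 (difference -1.78, SE 0.17, adjusted p = 0.0055). Bambi was also on the list of targets, since the pathway induces it.

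Of 5 other SMADs, 2 were higher in TS2 and 3 did not pass, while 5.05% of all genes were called as higher. With a list of only 5 this count is not read as an excess. Smad1, which BMP receptors activate, had a log2 intensity of 7.13 and 7.32 in TS2, against 5.92 and 5.98 in TS1. Its difference was 1.28 (SE 0.10), or 2.43-fold, at an adjusted p of 0.00326, with both TS1 values under 6.61. Smad4, the shared partner, lay at 10.65 and 10.49 in TS2, against 10.08 and 10.10 in TS1 (difference 0.47, SE 0.099, adjusted p = 0.0412). No fit on 3 arrays kept the Smad4 call (adjusted p from 0.103 to 0.212).

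**Figure D4:**
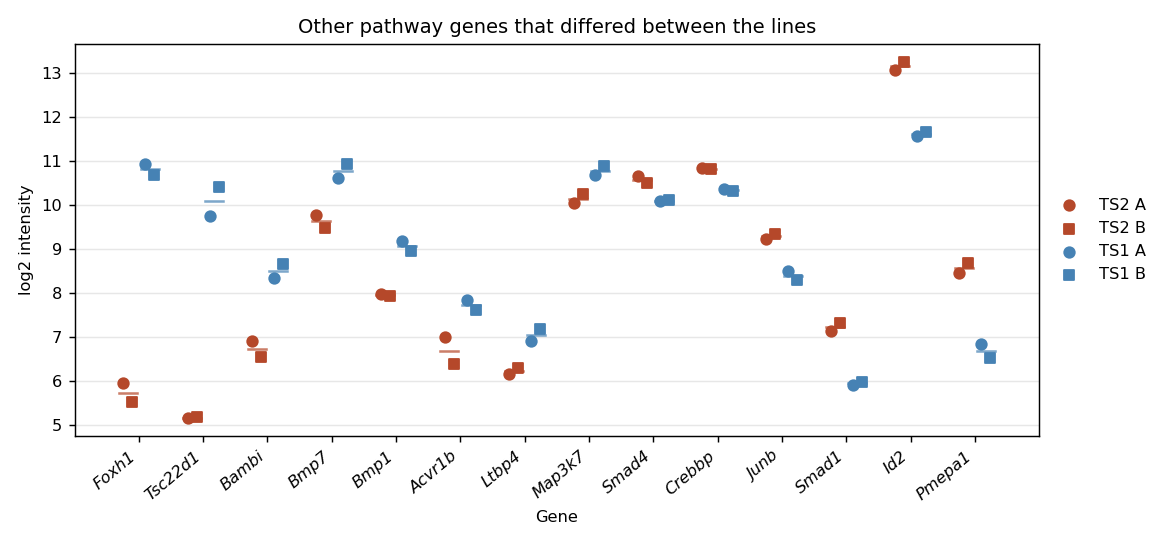
Log2 intensity (vertical axis) of the 14 pathway genes outside the 10 that passed the test (horizontal axis, in order of their difference), with TS2 in red and TS1 in blue, circles for duplicate A, squares for duplicate B and short lines for the mean of each line. Foxh1 and Tsc22d1 show the widest gaps between the lines, with differences of -5.07 and -4.91.

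Among regulators outside the nucleus, Ltbp4, a matrix protein that holds latent TGF-beta, was the called one of 18 genes of latency, activation and ligand trapping. It lay at 6.15 and 6.30 in TS2, against 6.91 and 7.19 in TS1 (difference -0.82, SE 0.13, adjusted p = 0.0215), a call that ended at an adjusted p of 0.0564, 0.115 and 0.0764 on leaving out TS1 B, TS2 A and TS2 B in turn. Both TS2 values of Ltbp4 lay under 6.61, and with the offset of 50 its difference was -0.55, so its size is uncertain. Of 26 SMAD partners, corepressors and ubiquitin ligases, 2 were higher in TS2, 2 were lower and 22 did not pass. Foxh1, a forkhead factor that brings Smad2 and Smad4 to DNA in the early embryo, was 33.7-fold higher in TS1. Its log2 intensity was 5.95 and 5.52 in TS2, against 10.94 and 10.68 in TS1 (difference -5.07, SE 0.18, adjusted p = 0.000401). Both TS2 values lay under 6.61, and with the offset of 50 the difference was -4.16, so this fold is uncertain in size.

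Map3k7, the kinase TAK1 of the SMAD-independent branch, lay at 10.04 and 10.24 in TS2, against 10.68 and 10.88 in TS1 (difference -0.64, adjusted p = 0.0339). On leaving out TS1 B, TS2 A and TS2 B in turn it missed, at an adjusted p of 0.104, 0.165 and 0.0856. Crebbp, a histone acetyltransferase that SMADs recruit, lay at 10.83 and 10.82 in TS2, against 10.37 and 10.31 in TS1 (difference 0.48, adjusted p = 0.0284), and no fit on 3 arrays kept its call (adjusted p from 0.0582 to 0.153). The fourth, Pmepa1, was on the list of targets as well and is described with them.

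Of 17 measured target genes of the pathways, 3 were higher in TS2, 2 were lower and 12 did not pass, or 5 of 17 called, against 13.5% of all genes. Brighter genes were called more often, 2880 of 9969 with the dimmest 50% left out. The 17 hold dim genes too, such as Itgae and Tgfbi, both under 6.61 on every array, so neither share is matched to them. An excess among the targets was not tested, and their share is not read as one. The median difference of the 17 was 0.169, against 0.013 over all genes. Pmepa1, a membrane protein that TGF-beta induces and that binds Smad2 and Smad3, had a log2 intensity of 8.45 and 8.69 in TS2, against 6.84 and 6.52 in TS1. Its difference was 1.89 (SE 0.15), or 3.71-fold, at an adjusted p of 0.00319. Id2, a relative of Id3, lay at 13.07 and 13.25 in TS2, against 11.56 and 11.66 in TS1 (difference 1.55, SE 0.11, adjusted p = 0.00197).

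Junb, a subunit of the AP-1 factor, lay at 9.23 and 9.35 in TS2, against 8.49 and 8.29 in TS1 (difference 0.90, SE 0.11, adjusted p = 0.0111). It missed narrowly on leaving out TS2 A (adjusted p = 0.0511) or TS2 B (adjusted p = 0.0661). Tsc22d1, first found as a transcript that TGF-beta induces, went the other way, at 5.16 and 5.18 in TS2 against 9.75 and 10.41 in TS1 (difference -4.91, SE 0.22, adjusted p = 0.000713). Both TS2 values lay under 5.35, the limit set on the means of the dimmest 30% of genes, and with the offset of 50 the difference was -3.72, so its size is uncertain. Bambi, the other target lower in TS2, is described above. Many of these targets respond to other signals as well, so their levels are no measure of TGF-beta or BMP signalling.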

How the data were processed

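RNA of 2 biological duplicates each of TS2 and TS1 was read on 1 Affymetrix mouse gene array each. The authors deposited linear intensities, from 5.98 to 23157, made with Affymetrix Expression Console and RMA, per the submitters' processing notes, with no version stated. RMA normalizes the arrays to each other, which removes a shift shared by most genes. Log2 of the values was taken here without a pseudocount. Of 35556 probe sets, 21789 named 1 gene in the platform annotation, and symbols were updated by Entrez number through a RefSeq table (21698 found). The brightest probe set by mean stood for each of 19938 genes. One linear model with the line as factor was fitted over all 4 arrays with limma 3.58.1 in R 4.3.3 (2 residual and 3.03 prior degrees of freedom). On simulated arrays with 200 changed genes it called 64.6% of log2 differences of 1 and 95.6% of those of 2. Unchanged genes gave 7.4 calls on average. The simulated noise was independent between arrays, so the independence of the real duplicates was not tested. The 10 genes and the pathway lists were chosen with earlier results of these data known. Named genes are the 10, every called gene of each pathway list where at most 8 passed, some cell type markers, picked with their values in view, and any marked in the text as picked by their values. 5 of 113 listed pathway genes were not analysed here. Alternatives were each array left out, the replicate letter as a block, other prior variances, scalings, an offset, filters on dim genes, the mean of a gene's probe sets, and stricter thresholds.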

Additional observations from a re-analysis of the deposited data

How the results depend on the processing

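Of the 10 genes, limma called 3 with all arrays and 1 to 4 with 1 array left out. The 1 without TS1 B was Tgfbr2, and the 4 without TS1 A were Tgfbr1, Tgfbr2, Tgfbr3 and Bmpr1a. The count was 0 without moderated variances (2 at an unadjusted p under 0.05), 0 at an adjusted p under 0.01 and 0 with limma's treat against 2-fold. Of the 108 other pathway genes, 14 were called with all arrays, 7 to 14 with 1 array left out, 0 without moderated variances (24 at an unadjusted p under 0.05), 7 at an adjusted p under 0.01 and 2 with treat. With 1 array left out, fewer residual degrees of freedom remain, and the lone array of a line is taken to have the spread of the other. With the replicate letter as a block, 2 of the 10 and 12 of the 108 were called, and Smad3 was lost (adjusted p = 0.069). B minus A correlated by -0.029 between the lines over all genes, so no shift from A to B common to both lines was seen. Whether the letters pair arrays that were grown or processed together is not known from the labels. Over all genes the 2691 calls became 1666 with the block, 320 with treat and 0 without moderated variances (4156 at an unadjusted p under 0.05). The sign turned only for genes that were not called: Acvr1 ran from -0.04 to 0.31 and Smad7 from -0.22 to 0.07 with 1 array left out, and Smad2 was 0.02 after renewed quantile normalization. The other alternatives changed neither count by more than 1.5 times. Bmpr1a stayed the 1 gene of the 10 at least 2-fold apart in TS1 under each scaling, offset and filter tried. The median difference of all genes was 0.013, against 0.038 after centring and 0.00505 after renewed quantile normalization.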
